A study of Mus musculus with 82 samples.

Results

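CDX2 is a homeodomain transcription factor of the posterior embryo. A chromatin immunoprecipitation (ChIP) for CDX2 was sequenced from stembryos of 72 h, 96 h and 120 h (hours counted from the aggregation of the cells), and the authors called regions of enrichment separately in each library. The 120 h list held 2272 regions. The 771 regions described here were chosen by their CDX2 calls: they did not overlap any of the 4501 regions of the 96 h list by a single base (120 h-only regions). The other 1501 regions of the 120 h list overlapped a 96 h region (shared regions), while 3003 regions of the 96 h list had no counterpart at 120 h (96 h-only regions). The 3 CDX2 lists held 6920 regions together, of which 147 came from 72 h.

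Stembryos, or gastruloids, are grown from mouse embryonic stem (mES) cells that aggregate and, after a pulse of a Wnt agonist, elongate into something like a posterior body axis. The pulse starts at 48 h, so the 48 h libraries came from stembryos that had not yet received it, whereas all later samples had. All CDX2, NIPBL and PolII libraries came from wild-type (wt) cells. H3K27ac libraries came from wt cells at 48 h to 168 h and, at 96 h and 120 h, from Del(CBS1) and Del(CBS1-2) cells, and RAD21 libraries from wt cells at 48 h to 168 h, Del(CBS1) cells at 96 h and Del(CBS1-5) cells at 120 h. H3K27me3 was profiled in wt cells at 72 h to 144 h and in Del(CBS1-5) cells at 96 h, and CTCF in wt cells at 72 h and 168 h, in Del(CBS1), Del(CBS2), Del(CBS1-2) and Del(CBS1-5) cells at 96 h, in Del(CBS4) cells at 120 h and in Ins(2xCBS-d4d8) cells at 144 h. The Del lines lack CTCF-binding sites (CBS) of the HoxD gene cluster on both alleles, and Del(CBS1-2) was made from Del(CBS1) cells. The Ins line carries additional CTCF sites next to CBS1. Each library was made from many stembryos pooled together, and from 108 h onwards only elongated stembryos were taken. In such bulk samples, a site used in fewer cells and a site used more weakly in each cell cannot be told apart.

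CDX2 and its relatives CDX1 and CDX4 act downstream of Wnt signalling in the tail bud, where they are needed for axis elongation and for the activation of trunk Hox genes, and CDX2 later specifies the intestine. CDX proteins bind a short AT-rich motif and are found mostly at distal enhancers. H3K27ac marks active enhancers and promoters, while H3K27me3 is the mark of Polycomb repression. RAD21 belongs to cohesin, the complex that extrudes chromatin loops, NIPBL loads cohesin onto chromatin and is found at active enhancers, and CTCF is the protein at which extrusion stalls.

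The sequences around the summits are shown first, because the CDX word they hold or lack is counted in the comparisons that follow. A summit is the base with the most overlapping fragments in a region, and each sequence spans 101 bases around it on the plus strand of mm10 (GRCm38). Capitals mark a CDX word, which was defined as GCAATAAA, GCCATAAA, GTAATAAA or GTCATAAA on either strand. The first 3 sequences are from regions among the 8 strongest 120 h-only regions that hold such a word. The next 6 also hold such a word and have a developmental gene as the nearest or lie in or beside a Hox cluster. Their summits were up to 143 kb from the nearest start. Other such regions held no CDX word, among them those near Olig2, Pax3, Tbx3 and Hoxd3, so these sequences do not show how frequent the word was. The closing pair belongs to the strongest regions of all, neither of which holds a CDX word.
Engase, chr11:118475730-118475830: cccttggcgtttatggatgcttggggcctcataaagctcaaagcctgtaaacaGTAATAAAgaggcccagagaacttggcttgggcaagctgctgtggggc
Hs3st3b1, chr11:63664915-63665015: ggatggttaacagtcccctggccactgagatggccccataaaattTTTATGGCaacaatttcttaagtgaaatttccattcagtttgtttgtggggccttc
Slco3a1, chr7:74417165-74417265: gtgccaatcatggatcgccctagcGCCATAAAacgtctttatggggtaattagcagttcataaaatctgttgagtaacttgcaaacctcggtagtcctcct
Meis1, chr11:18963751-18963851: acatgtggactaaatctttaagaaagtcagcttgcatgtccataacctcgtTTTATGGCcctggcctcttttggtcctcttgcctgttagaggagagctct
Prrx1, chr1:163355898-163355998: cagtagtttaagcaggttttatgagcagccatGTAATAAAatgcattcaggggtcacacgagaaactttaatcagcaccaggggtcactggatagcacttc
Nrp1, chr8:128263395-128263495: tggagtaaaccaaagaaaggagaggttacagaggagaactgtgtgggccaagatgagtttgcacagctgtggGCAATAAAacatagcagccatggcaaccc
Mtx2 (telomeric side of HoxD), chr2:75011983-75012083: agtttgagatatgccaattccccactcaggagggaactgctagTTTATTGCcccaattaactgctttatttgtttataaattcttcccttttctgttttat
5730596B20Rik (HoxA), chr6:52178442-52178542: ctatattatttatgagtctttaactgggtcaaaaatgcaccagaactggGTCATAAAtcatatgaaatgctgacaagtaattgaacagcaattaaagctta
Bmp2, chr2:133420104-133420204: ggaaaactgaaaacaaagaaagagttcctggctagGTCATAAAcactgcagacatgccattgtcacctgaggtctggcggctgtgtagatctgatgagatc
Gm14137, chr2:119171650-119171750: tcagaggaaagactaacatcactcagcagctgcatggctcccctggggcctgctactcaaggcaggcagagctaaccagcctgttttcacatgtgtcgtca
Hlx, chr1:184487613-184487713: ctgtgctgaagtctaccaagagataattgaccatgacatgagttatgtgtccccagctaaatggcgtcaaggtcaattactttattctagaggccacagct

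The distance of the CDX word from the summit varied in these regions, within the 50 bp on each side that were searched. In the Mtx2 region its centre was 3.5 bp from the summit, in the 5730596B20Rik region 2.5 bp, in the first Meis1 region 4.5 bp and in the Nrp1 region 25.5 bp. Across the 175 regions of the 120 h-only set that held a CDX word within 50 bp of the summit, the median distance was 19.5 bp. The search window set an upper limit to this distance, so the median does not measure closeness to the summit. A single word was present in 161 of them and 2 or more words in 14. GCAATAAA was found in 62 regions, GCCATAAA in 60, GTCATAAA in 40 and GTAATAAA in 21.

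A CDX word was thus present in 22.7% of the 120 h-only regions (95% exact binomial interval, 19.8 to 25.8), in 28.5% of the shared regions and in 17.5% of the 96 h-only regions. At positions 500 bp away from the 120 h-only summits, the share was 1.49%. It was 0.998% at the 17829 H3K27ac regions of 120 h that lay away from promoters and overlapped no CDX2 region. With only 1 CDX2 library per stage, these shares have no replicate check and their intervals cover counting error only. Dropping the leading G from the 4 words, which leaves 7 letters, brought the share to 41.5% in the 120 h-only regions, 48.4% in the shared regions and 33.8% in the 96 h-only regions, with 9.27% at the positions 500 bp away.

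The words of other factors were distributed differently. SOX words (ACAAAGG as well as ACAATGG), which are bound by the SOX family of progenitor and neural factors, were found within 50 bp of 12.5% of the 120 h-only summits, against 8.86% of the shared and 6.23% of the 96 h-only summits and 4.15% of the positions 500 bp away. TCF-LEF words (CTTTGAT as well as CTTTGAA), which are bound by the effectors of Wnt signalling, went the other way, with 4.93% in the 120 h-only regions, 8.79% in the shared and 12.6% in the 96 h-only regions. The 120 h-only share was close to the 4.41% found 500 bp away. HOX-PBX words (TGATTTAT, TGATTAAT, TGATTGAT) were present in 2.85%, 4.86% and 4.66% of the respective sets and in 0.973% of the positions 500 bp away. Words of GATA factors (AGATAAG as well as TGATAAG) and T-box factors (AGGTGTGA) were seen in 0.519% and 0.259% of the 120 h-only regions, no more often than 500 bp away (2.08% and 0.454%). A word match is a description of the sequence and not evidence of binding.

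**Figure D1:**
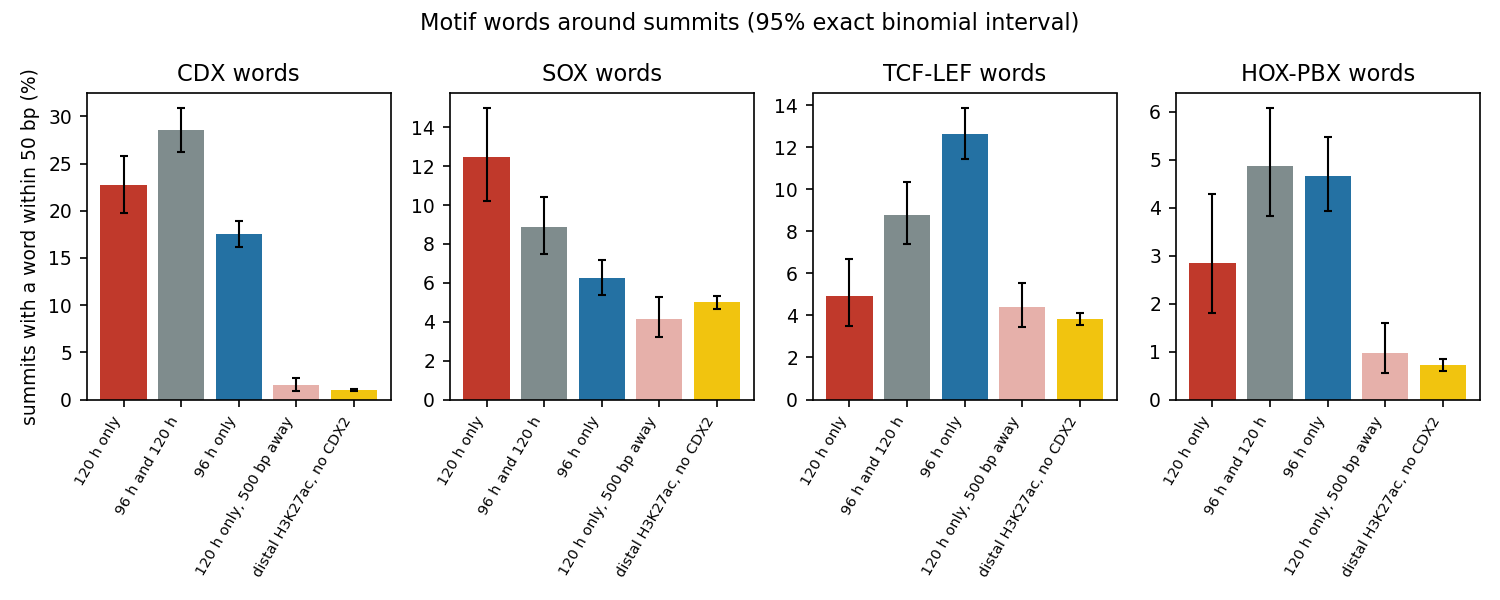
Share of summits (%, vertical axis) with a CDX, SOX, TCF-LEF or HOX-PBX word within 50 bp, for the 120 h-only, shared and 96 h-only CDX2 regions, for positions 500 bp from the 120 h-only summits and for distal H3K27ac regions of 120 h, with 95% exact binomial intervals. CDX words were found at 22.7% of the 120 h-only summits and 1.49% of the positions 500 bp away, and the 120 h-only set had the highest share of SOX words (12.5%) and the lowest share of TCF-LEF words (4.93%) of the 3 CDX2 sets.

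The rule that chose these regions used the CDX2 signal itself, so the following CDX2 values are descriptive. MACS2, the peak caller, reports for each summit a fold enrichment, the number of fragments over the summit against the local background of the same library. The 120 h-only regions had a fold enrichment of 2.44 to 12.2 with a median of 4.61, whereas the median was 5.72 in the shared and 4.63 in the 96 h-only regions. The number of fragments over their summits was 11 to 53 with a median of 16, against 22 and 18 in the other sets. A −log10 q of 5 or more was reached by 305 of them (39.6%), by 74.2% of the shared and by 53.5% of the 96 h-only regions. Only 7 of the 771 (0.908%) overlapped a region of the 72 h list, compared with 6.20% of the shared and 0.899% of the 96 h-only regions.

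Absence from the 96 h list means only that no region passed the caller's threshold there, since the lists do not hold the fragments at sites that were not called. The nearest 96 h region was a median of 114.8 kb away, and 415 of the 120 h-only regions had none within 100 kb, while 21 had a 96 h region within 1 kb. The latter included the regions near Magel2 (0.534 kb), Lin28a (0.6 kb), Notch1 (0.614 kb) and Pax3 (0.9 kb) that are described below. Nearest to the edge of the rule were a region near Maf with a gap of 1 base (fold enrichment 3.88) and a region near Sall1 with a gap of 165 bases (3.46). Just outside it lay a region near Usp47 that overlapped a 96 h region by 57 bases (3.46).

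The strongest 120 h-only regions were mostly distal. The highest fold enrichment, 12.2 with 53 fragments, was found in an intron at chr2:119171578-119171831, with Gm14137 as the nearest protein-coding gene. The 2 next strongest, at chr1:184487394-184487847 (11.1) and chr1:184663496-184663793 (10.8), had Hlx as their nearest gene, 244 kb and 67.9 kb from its start. Hlx encodes a homeobox factor of the mesenchyme of gut and liver. The others of the 12 strongest lay near Cyp2d40, a cytochrome P450 (9.92), Fars2, a mitochondrial tRNA synthetase (8.98), Ppargc1a, a coactivator of mitochondrial biogenesis (8.93), Map2k6, a kinase that activates p38 (8.91), Errfi1, an inhibitor of EGF receptor signalling (8.88), Cd83 (8.59), Mylip, a ubiquitin ligase of the LDL receptor (8.52), Slc35b3 (8.42) and Tunar (8.36). None of the 12 held a CDX word, and the first region with such a word in the order of fold enrichment was the 17th, near Engase (7.97).

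NIPBL appeared late at these regions. Of the 12 strongest, 1 overlapped a NIPBL region at 96 h, 7 at 108 h, 10 at 120 h, and all 12 at 132 h and at 144 h, before 11 did so at 168 h. The Gm14137 region was covered by NIPBL from 108 h to 144 h, and both Hlx regions from 108 h to 168 h. RAD21 was present at 8 of the 12 in the one 132 h library and at 10 in the other. H3K27ac was rarer. The Gm14137, Fars2, Cyp2d40 and Tunar regions and the stronger Hlx region overlapped no H3K27ac region in any of the 21 lists, whereas the Map2k6 region was called in 6 of 7 lists at 96 h and in 7 of 7 at 120 h. The Ppargc1a region overlapped H3K27ac in 1 of 7 lists at 96 h and in 6 of 7 at 120 h.

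**Figure D2:**
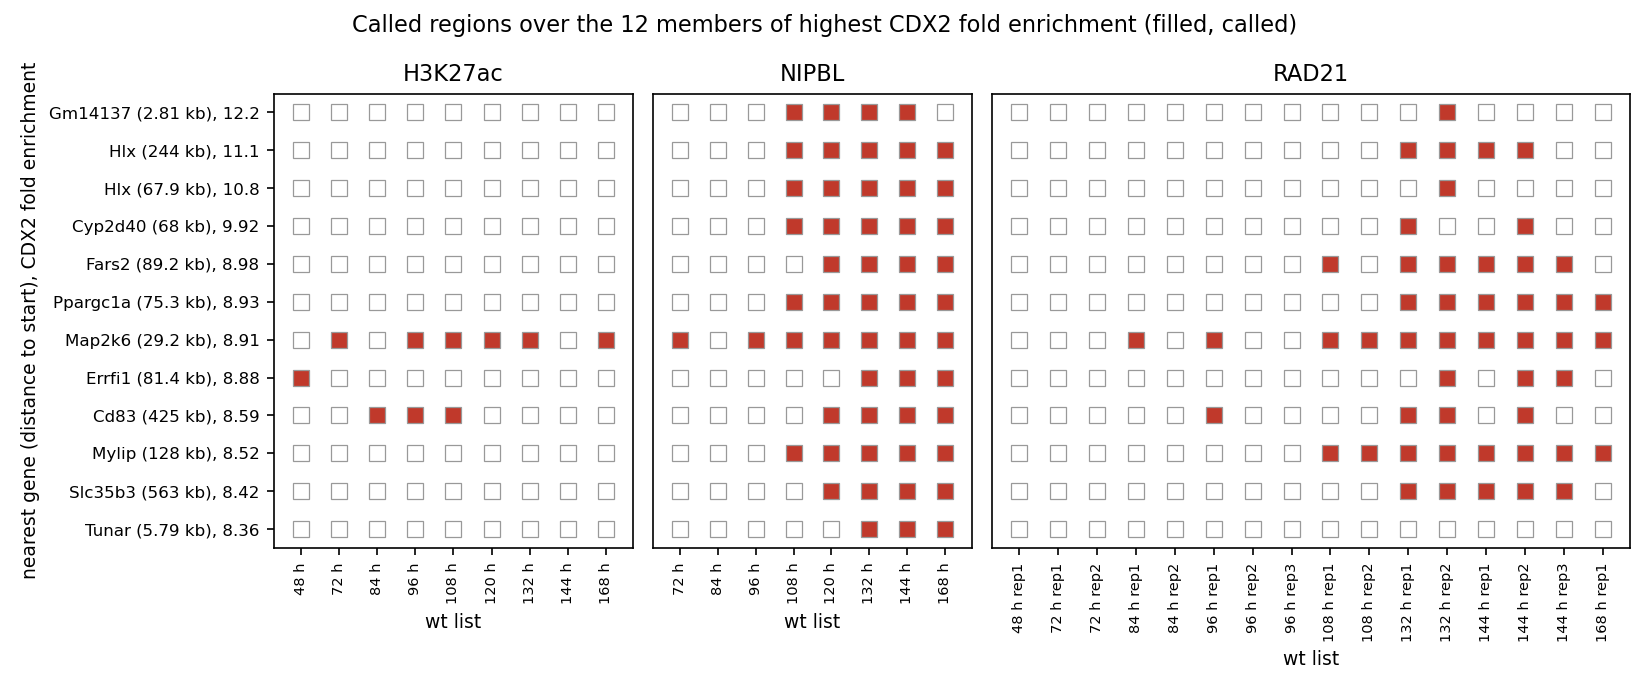
Regions of H3K27ac, NIPBL and RAD21 called over the 12 strongest 120 h-only CDX2 regions (rows, with the nearest gene, its distance in kb and the CDX2 fold enrichment) in the wt lists of each stage (columns), where a filled square is a call. NIPBL filled 1 row at 96 h and all 12 rows at 132 h and 144 h, and H3K27ac filled few squares except at Map2k6.

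Across all 771 regions, the share that overlapped a NIPBL region was 3.76% in the 72 h list and 3.89% in the 84 h list, with 1 library per stage. It was 28.8% at 96 h, 39.0% at 108 h and 35.5% at 120 h. Later shares were 49.0% at 132 h, 72.2% at 144 h and 64.2% at 168 h. It was therefore higher at 132 h to 168 h than at any earlier stage. Spearman's rho with the stage was 0.952 (exact permutation test, Benjamini-Hochberg adjusted p = 0.00913 over the 8 relations computed with the stage) and Pearson's r was 0.935 (adjusted p = 0.00933), or 0.944 without 72 h and 168 h. With 7 stages left, the adjusted p was 0.0540 (exact permutation) without 72 h, 84 h or 96 h, at a rho of 0.929. The 96 h-only regions followed another course, with NIPBL at 70.6% of them at 96 h and 57.6% at 108 h, then 36.5% at 120 h and 32.9% at 132 h, before 52.3% at 144 h and 45.7% at 168 h. The difference between the 120 h-only and the 96 h-only share was −41.8 percentage points at 96 h and 19.9 points at 144 h. The trend of this difference had a rho of 0.762 (exact permutation test, adjusted p = 0.0735), which did not pass the threshold of 0.05. The shared regions were the most often covered at every stage, from 14.4% at 72 h to 87.4% at 144 h.

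The NIPBL lists differed in length, from 4888 regions at 84 h to 40490 at 144 h, and the part of this in the course was examined by reducing every list to its 4888 strongest regions. The 120 h-only share was then 2.98%, 3.89% and 2.98% in the first 3 lists (72 h to 96 h). It was 13.2% at 108 h and 15.3% at 120 h, and the share in the latest lists was 21.5% (132 h), 28.4% (144 h) and 21.7% (168 h). The 96 h-only share was 23.9% at 96 h and 10.3% at 168 h on the same footing, and the trend of the difference passed the threshold (rho 0.810, exact permutation test, adjusted p = 0.0447). In the full lists, 346 of the 771 regions (44.9%) were called at 132 h, 144 h and 168 h, and 201 of these (26.1% of 771) at none of 72 h, 84 h and 96 h. The reverse, NIPBL at 72 h, 84 h or 96 h and at no stage from 132 h onwards, was found in 24 regions (3.11%). The first NIPBL call fell at 96 h in 185 regions, at 108 h in 160 and at 144 h in 95, and 155 regions (20.1%) had none. These counts were not made for the other sets or over all NIPBL regions, so they have no background to be set against. The full lists of 72 h and 84 h were the shortest (6652 and 4888 regions), and the part of list length in these counts was not tested.

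NIPBL followed the strength of the CDX2 signal. Among the 193 regions of highest fold enrichment, 87.0% overlapped NIPBL at 144 h, against 78.8%, 70.5% and 52.6% in the following groups of 193, 193 and 192 regions in the order of fold enrichment. At 96 h the corresponding shares were 30.1%, 29.0%, 31.1% and 25%, so this order was seen at 144 h and not at 96 h. It also depended on the position. NIPBL at 144 h was found at 80.1% of the 507 regions over 10 kb from a protein-coding start and at 42.2% of the 90 regions within 1 kb of a start.

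**Figure D3:**
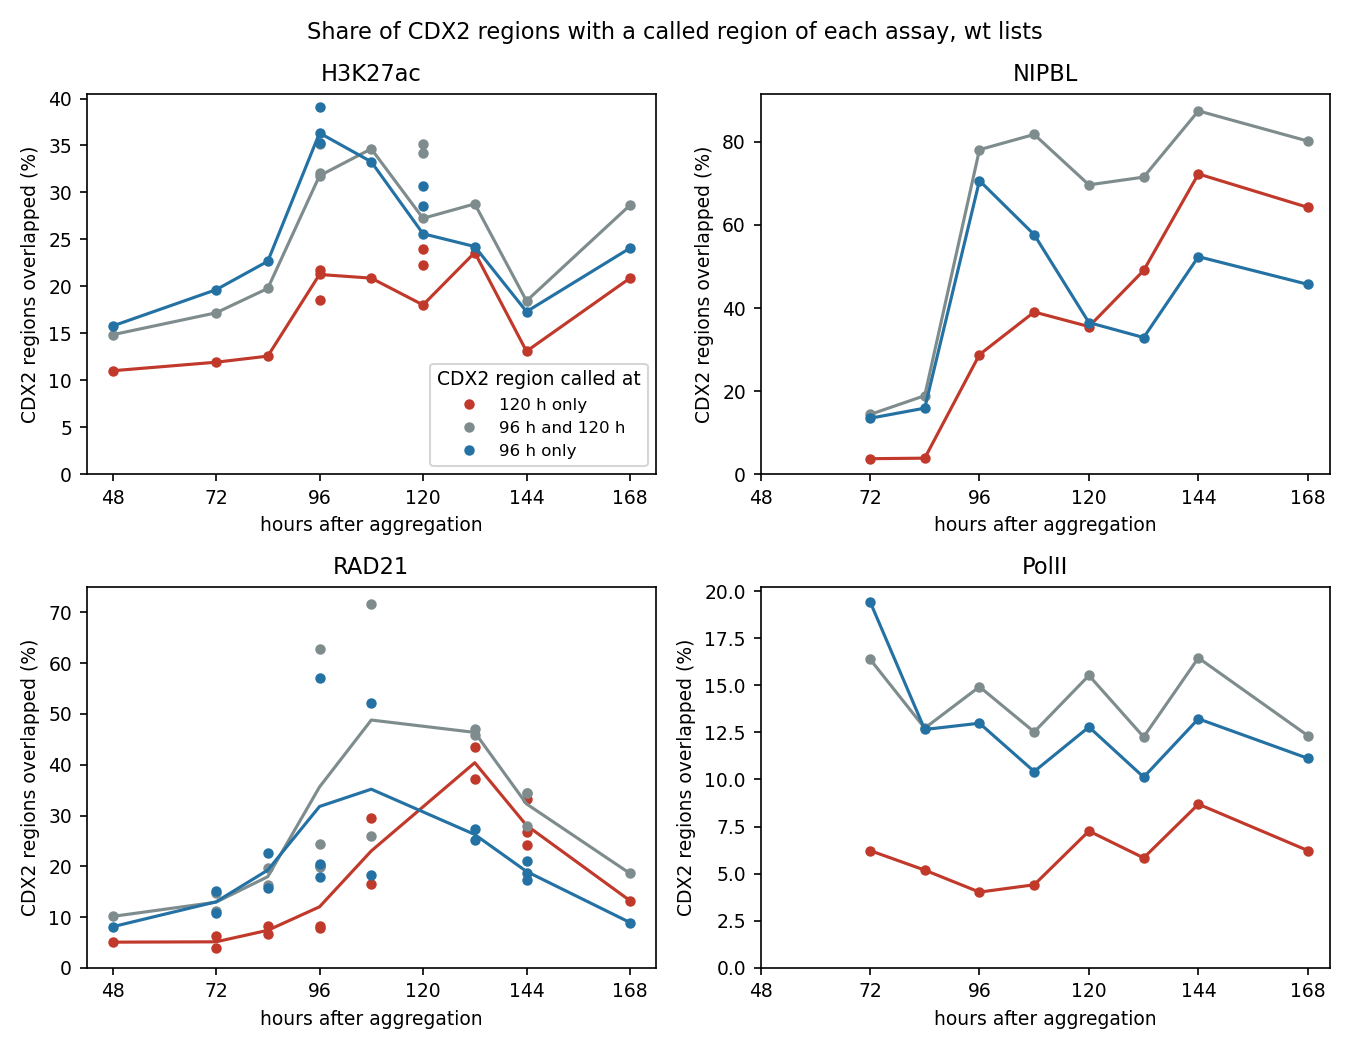
Share of CDX2 regions (%, vertical axes) that overlap a called region of H3K27ac, NIPBL, RAD21 or PolII in wt stembryos against hours after aggregation; points are libraries and lines join the stage means, except for H3K27ac, where they join the libraries that make up the 9-stage time course. NIPBL at the 120 h-only regions went from 28.8% at 96 h to 72.2% at 144 h, while it went from 70.6% to 52.3% at the 96 h-only regions, and RAD21 at the 120 h-only regions was highest at 132 h (40.4%).

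RAD21 at the 120 h-only regions was also most frequent late. The stage means in wt were 5.06% at 48 h (1 library), 5.12% at 72 h (2 libraries), 7.39% at 84 h (2 libraries) and 12.02% at 96 h (3 libraries). Later means were 23.0% at 108 h (2 libraries), 40.4% at 132 h (2 libraries), 28.1% at 144 h (3 libraries) and 13.2% at 168 h (1 library). In the full lists, both 132 h libraries (43.6% and 37.2%) lay above all other RAD21 libraries. The second of these was the longest RAD21 list (71196 regions). With the lists reduced to equal length, the 2 shares were 24.1% and 7.78%. The 3 libraries of 144 h then had 19.1%, 9.21% and 8.43%, all above the second 132 h library. In the full lists of the 3 libraries at 96 h the shares were 20.0%, 8.17% and 7.91% (mean 12.02% ± 6.89, SD), and in 3 libraries at 144 h they were 33.2%, 26.7% and 24.3% (28.1% ± 4.62). All 144 h values were above all 96 h values, and the difference of 16.04 points had an exact permutation p = 0.10 (two-sided), the smallest that 3 against 3 can give. The high value at 96 h came from replicate 1, which also stood apart in the shared regions (62.8% against 19.8% and 24.3%), and replicate 1 at 108 h did so too (29.4% against 16.6% in the 120 h-only regions). The part of these libraries in the result was not tested, but without replicate 1 at 96 h the difference was 20.0 points. With the lists reduced to equal length the difference was 7.004 points (exact permutation p = 0.10). The rank correlation of the stage mean with the stage was 0.833 (exact permutation test, adjusted p = 0.0410), while Pearson's r was 0.615 (adjusted p = 0.168), or 0.899 without 48 h and 168 h. It did not pass when 48 h, 72 h, 84 h, 96 h or 108 h was left out (adjusted p from 0.0683 to 0.133). The difference from the 96 h-only regions had a rho of 0.452 with the stage (exact permutation test, adjusted p = 0.267).

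Region by region, 129 of the 771 overlapped RAD21 in all 3 libraries of 144 h and 38 in all 3 libraries of 96 h. Of these, 50 had RAD21 in all 3 libraries of 144 h and in none at 96 h, and 0 had the opposite. These were 6.49% and 0% of the 120 h-only regions, against 1.63% and 0.995% of all 89562 merged RAD21 regions of these 6 lists. In the shared regions the corresponding shares were 1.87% and 2.66%, and in the 96 h-only regions 0.500% and 4.40%. Every merged region had RAD21 in at least 1 of the lists. Among the 367 such 120 h-only regions the shares were 13.6% and 0%. They were 2.56% and 3.66% of the 1094 such shared regions, and 0.780% and 6.87% of the 1922 such 96 h-only regions. These shares were not tested. RAD21 and NIPBL were found together. At 132 h, RAD21 in both libraries was present at 182 of the 378 regions with NIPBL (48.1%) and at 47 of the 393 regions without it (11.96%). CTCF overlapped few of these regions, since 131 of 771 (17.0%) were called in any of the 8 CTCF lists and 28 (3.63%) in both wt lists. Among the 640 regions with no CTCF call, 59 (9.22%) had RAD21 in all 3 libraries of 144 h. The regions with RAD21 in all 3 libraries of 144 h rarely held a CDX word (10 of 129, 7.75%), compared with 26.5% of the 449 regions with RAD21 in none of them. Only 59 of these 129 regions were without a CTCF call, and a CDX word was also rare in the regions with CTCF (8 of 131, 6.11%). The part of CTCF in this contrast was not tested. CDX words were present in 22.6% of the regions with NIPBL at 144 h and in 22.9% of those without it.

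H3K27ac was tested at 96 h against 120 h, where each stage had 7 libraries (3 wt, 2 Del(CBS1) and 2 Del(CBS1-2)). The share of 120 h-only regions that overlapped H3K27ac had a lowest value of 18.5%, a median of 22.0% and a highest value of 25.8% at 96 h (mean 22.4% ± 2.42, SD, n = 7). At 120 h the lowest value was 18.03%, the median 27.2% and the highest 34.0% (26.7% ± 5.81, n = 7). The groups overlapped, 4 of the 7 libraries at 120 h lay above all libraries at 96 h, and the difference of 4.32 points did not pass the threshold (exact permutation test, two-sided, p = 0.0985). The lowest 120 h value came from wt replicate 3, whose list was the shortest of the 14 (32590 regions against 42641 to 63020 in the others), and without it the difference was 5.76 points (exact permutation p = 0.0152). Within the genotypes, the 2 Del(CBS1-2) libraries went from 25.03% and 25.8% to 33.5% and 34.0%, and the 2 Del(CBS1) libraries from 22.2% and 22.0% to 27.9% and 27.2%. The wt libraries went from 21.8%, 18.5% and 21.3% to 24.0%, 22.3% and 18.03%, and thus overlapped, with a difference of 0.908 points (exact permutation p = 0.7, where 3 against 3 cannot go below 0.10). When libraries were permuted only within a genotype, p was 0.0194 (exact permutation test). The genotype coincides in part with how the cells are described in the labels, as a cell line for Del(CBS1-2) and as a cell type for the others, so that these cannot be told apart.

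Because the lists differed in length, the share in the 96 h-only regions was subtracted within each library. The difference was −19.5, −18.5 and −15.1 points at 96 h (lowest, median and highest, mean −17.8 ± 1.52, n = 7) and −9.68, −7.78 and −6.26 points at 120 h (mean −7.76 ± 1.10, n = 7). All 7 libraries of 120 h lay above all 7 of 96 h, and the change of 10.0 points had an exact permutation p = 0.000583, the smallest that 7 against 7 can give. It was made up of a higher share in the 120 h-only regions (22.4% to 26.7%) and a lower share in the 96 h-only regions (40.2% to 34.5%), with 36.5% and 38.8% in the shared regions. The call was lost when H3K27ac had to cover at least 50% of the CDX2 region (change of 0.242 points, exact permutation p = 0.755). Under that requirement the 120 h-only share was 10.6% at 96 h and 12.7% at 120 h, and the 96 h-only share 17.2% and 19.1%. Most of the change thus lay in H3K27ac regions that covered a smaller part of the CDX2 region than this. Among the libraries described as a cell type the change was 9.76 points (exact permutation p = 0.00794), and among those described as a cell line 10.7 points (p = 0.333 by exact permutation, the smallest that 2 against 2 can give). With lists reduced to equal length the change was 14.0 points (exact permutation p = 0.000583), so the subtraction did not remove the part of list length in its size.

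**Figure D4:**
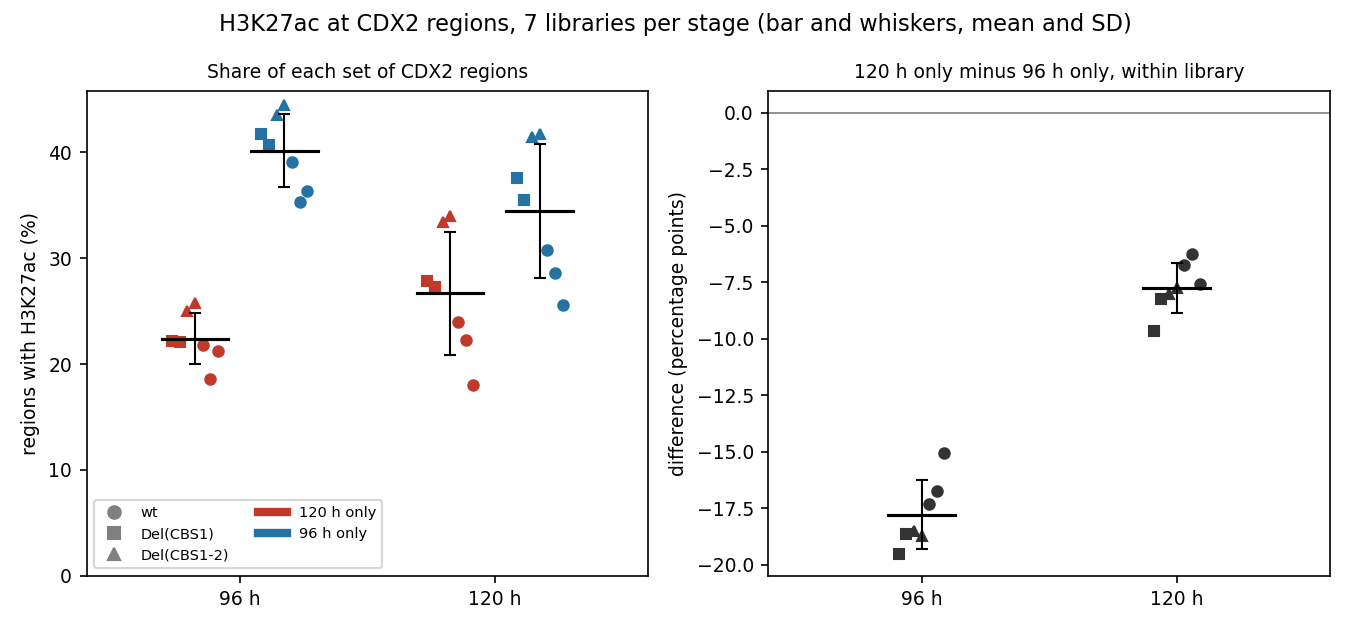
H3K27ac at CDX2 regions in 7 libraries of 96 h and 7 of 120 h, by genotype (symbols); left, share of the 120 h-only and the 96 h-only regions (%); right, the difference between these shares within each library (percentage points); bars and whiskers are the mean and SD. The differences at 96 h lay between −19.5 and −15.1 and those at 120 h between −9.68 and −6.26, without overlap.

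For single regions, presence of H3K27ac in the 7 libraries of each stage was compared with Fisher's exact test in 86101 merged H3K27ac regions. Across all of these, 2.5% were called higher at 120 h and 1.08% lower at a Benjamini-Hochberg adjusted p under 0.05. Of the 771 CDX2 regions, 421 overlapped a merged region that could be tested, namely one called in at least 2 of the 14 libraries. Of these 421, 6 were called higher at 120 h (1.43%) and 1 lower (0.238%). At an unadjusted p under 0.05 the counts were 34 (8.08%) and 4 (0.950%), against 7.99% and 6.2% of all merged regions. The number called higher depended on single libraries. Without wt replicate 3 of 120 h it was 32 of 414 (7.73%), against 6.88% of all merged regions, and 4 (0.966%) were called lower, against 3.33%. It was 20 without wt replicate 3 of 96 h, 18 and 22 without replicates 1 and 2 of Del(CBS1) at 120 h, and 18 and 17 without wt replicates 1 and 2 of 120 h. With lists of equal length, 15 of 301 (4.98%) were called higher and 1 (0.332%) lower, against 2.99% and 1.65% of all merged regions. The share called higher was therefore below the background in some of these settings and above it in others. The 6 regions were near Lrmda, Sc5d, Srbd1, Gm12830, Shroom3 and Sox5, and the 1 lower region was near Pth2r, each with a change between 0 of 7 and 7 of 7 libraries in the merged region (Fisher's exact test, adjusted p = 0.0163). The last 4 of the 6 and Pth2r were named after their values were seen. In the shared regions 4 were called higher and 7 lower of 1045 tested, and in the 96 h-only regions 45 were called lower (2.23%) of 2019.

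The largest differences in the number of H3K27ac lists over the CDX2 region itself were found near genes of diverse function. The regions near Lrmda (chr14:22147641-22148025) and near Sc5d (chr9:42240616-42240835), which encodes an enzyme of cholesterol synthesis, had H3K27ac in 0 of 7 libraries at 96 h and in 7 of 7 at 120 h. The Lrmda region had NIPBL at all stages from 108 h to 168 h, while the Sc5d region had RAD21 in all 19 RAD21 lists and CTCF in 7 of 8 lists. Regions near Cga, the common subunit of the glycoprotein hormones, Klhl3, an adaptor of a ubiquitin ligase, Socs2, an inhibitor of cytokine signalling, Nrp1, a co-receptor for semaphorins and VEGF, and Hdac9, a histone deacetylase, each went from 0 of 7 to 6 of 7 libraries. Of these 5 regions, all except that near Socs2 had NIPBL at every stage from 108 h to 168 h, and only the Nrp1 region held a CDX word.

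In the other direction, the region near Sema3a, an axon guidance cue, had H3K27ac in 7 of 7 libraries at 96 h and in 1 of 7 at 120 h. Those near Foxl1, Megf11 and Magel2 went from 6 of 7 to 0 of 7, that near Sparcl1 from 5 of 7 to 0 of 7 and that near Lrrc4c from 5 of 7 to 1 of 7. The region near Cpn2 and that near Greb1 both went from 7 of 7 to 2 of 7. NIPBL was called at every stage from 108 h to 168 h at the Sema3a, Foxl1, Sparcl1 and Greb1 regions, including 120 h, when H3K27ac was found in few or no libraries. The Megf11 region, 0.788 kb from the start of the gene, was the only one of these 8 with H3K27me3 in all 8 lists.

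In total, 222 of the 120 h-only regions (28.8%) overlapped H3K27ac in more libraries at 120 h than at 96 h and 133 (17.3%) in fewer, while 43 did so in all 14 libraries and 329 in none. Of the 442 regions with H3K27ac in any of these libraries, 50.2% thus had it in more and 30.1% in fewer, against 42% and 40.8% of all 137307 merged H3K27ac regions, 40.4% and 34.1% of the 1061 such shared regions and 25.8% and 46.5% of the 2063 such 96 h-only regions. These shares were not tested, and the Del(CBS1) and Del(CBS1-2) lists were longer at 120 h (61894 to 63020 regions) than at 96 h (54957 to 56828). In the time course of 9 wt libraries the share was 11.02% at 48 h, 11.9% at 72 h and 12.6% at 84 h. It was then 21.3% at 96 h, 20.9% at 108 h and 18.03% at 120 h, followed by 23.6% at 132 h, 13.1% at 144 h and 20.9% at 168 h. It was thus highest at 132 h, and no stage from 96 h onwards except 144 h fell near the level of 48 h to 84 h. Its rank correlation with the stage was 0.619 (exact permutation test, adjusted p = 0.130). With each list reduced to its 24002 strongest regions, rho was 0.75 (exact permutation test, adjusted p = 0.0447). At every stage the 120 h-only regions were the less often acetylated, with a difference from the 96 h-only regions of −15.1 points at 96 h and of −0.637 points at 132 h (trend of the difference, rho 0.55, exact permutation test, adjusted p = 0.177). In 123 regions (15.95%) H3K27ac was first called at 108 h or later, and 415 (53.8%) were called at no stage of this course.

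NIPBL without H3K27ac was the most common state at 144 h. Of the 557 regions with NIPBL at that stage, 92 (16.5%) overlapped H3K27ac, whereas 92 of the 101 regions with H3K27ac (91.1%) overlapped NIPBL. Even among the 286 regions without H3K27ac in any of the 21 lists, 182 (63.6%) had NIPBL at 144 h. The 144 h H3K27ac list was the shortest of the 21 (24002 regions) and the 144 h NIPBL list the longest of the 8, and the part of list length in these shares was not tested. PolII was rare throughout, at 4.02% of the regions at 96 h and 8.69% at 144 h, and its share had no trend that passed the threshold (rho 0.467, exact permutation test, adjusted p = 0.267). Its difference from the 96 h-only regions went from −13.2 points at 72 h to −4.90 points at 168 h (rho 0.881, adjusted p = 0.0290, and r 0.811, adjusted p = 0.0394, exact permutation tests; r 0.868 without 72 h and 168 h). The call on rho was lost when any 1 of the 5 stages from 72 h to 120 h was left out (adjusted p from 0.0635 to 0.102).

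Compared with the other CDX2 regions within the same library, the 120 h-only regions were less often acetylated in all 21 H3K27ac lists, with a mean difference of −11.05 points from the shared and −10.6 points from the 96 h-only regions (sign-flip permutation test over libraries, adjusted p = 4.0e-05 for both, the smallest the resampling can give, over 12 comparisons). They were less often covered by NIPBL than the shared regions in all 8 lists, with a mean difference of −25.7 points (exact sign-flip permutation test, adjusted p = 0.0104). Against the 96 h-only regions they were higher in 3 of 8 NIPBL lists and in 6 of 19 RAD21 lists, and these mean differences did not pass (exact sign-flip permutation test for NIPBL, adjusted p = 0.656; 100000 resamples for RAD21, permutation p = 0.109 adjusted). PolII was lower in all 8 lists against both sets, with mean differences of −8.16 and −6.86 points (exact sign-flip permutation test, adjusted p = 0.0104 for both). CTCF was lower in all 8 lists against the shared regions (mean difference −3.43 points, adjusted p = 0.0104) and in 7 of 8 against the 96 h-only regions (−2.30 points, adjusted p = 0.01875, exact sign-flip permutation tests). These libraries come from different stages and genotypes, and the tests cover the spread between libraries and not the choice of regions.

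H3K27me3 stood out in the opposite direction. It covered 9.08% to 11.2% of the 120 h-only regions in the 8 lists, against 3.13% to 3.93% of the shared and 0.400% to 1.37% of the 96 h-only regions. The 120 h-only share was higher in 8 of 8 lists, by a mean of 6.83 points against the shared and 9.61 points against the 96 h-only regions (exact sign-flip permutation test, adjusted p = 0.0104 for both, from the smallest p that 8 lists can give). In any of the 8 lists, 103 regions (13.4%) overlapped H3K27me3, and 64 did so in all 8, from 72 h to 144 h.

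These 103 regions differed in most other measures from the remaining 668. They lay a median of 0.989 kb from a protein-coding start, against 35.7 kb, and 52.4% of them were within 1 kb of a start, against 5.39%. Their median GC content within 50 bp of the summit was 58.4%, against 45.5%, and 3.88% held a CDX word, against 25.6%. NIPBL at 144 h was present at 23.3% of them, against 79.8%. Their CDX2 signal was weaker, with a median fold enrichment of 3.75 against 4.67, and 35.9% of the 192 weakest 120 h-only regions overlapped H3K27me3, compared with 1.55% of the 193 strongest. Among the named genes this group included the start of Fgf15, an FGF ligand (8 of 8 lists), a region 1.32 kb from the start of Tbx4, a T-box factor of the hindlimb (6 of 8), and a region in Hoxc6 (5 of 8).

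The distance to genes was otherwise similar to that of the other CDX2 regions. The median distance from the summit to the nearest protein-coding start was 26.8 kb (95% interval of the median, 21.4 to 32.6), against 29.6 kb for the shared and 26.9 kb for the 96 h-only regions. Within 1 kb of a start lay 90 of the 771 regions (11.7%), compared with 7.40% and 12.02% in the other sets, and 36 were left without those that overlapped H3K27me3. A distance of 1 to 10 kb was found for 174 regions (22.6%), of 10 to 100 kb for 327 (42.4%) and of over 100 kb for 180 (23.3%). By position, 296 (38.4%) were in introns, 356 (46.2%) were intergenic and 29 were in exons. When the starts of all annotated genes, noncoding ones included, were used, the median was 10.7 kb.

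**Figure D5:**
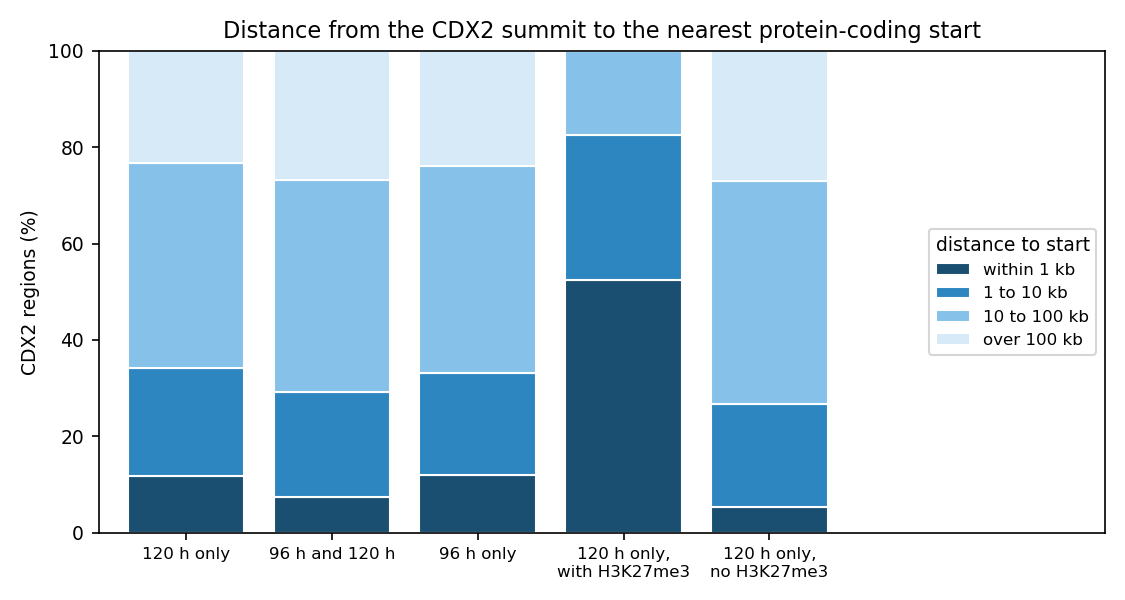
Share of CDX2 regions (%, vertical axis) by distance from the summit to the nearest protein-coding start, for the 3 sets and for the 120 h-only regions with and without H3K27me3. The 3 sets had similar distances, with 11.7%, 7.40% and 12.02% within 1 kb, whereas 52.4% of the 120 h-only regions with H3K27me3 and 5.39% of those without it lay within 1 kb.

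The 771 regions had 701 different nearest protein-coding genes, of which 641 were nearest to a single region. For 182 of these genes a shared region, and for 260 a 96 h-only region, also had the gene as its nearest, while 373 genes were nearest to neither. The same counts were not made for the genes of the other sets, so these numbers have no background to be set against. The 10 genes with 3 regions each were Auts2, Ebf2, Frem1, Lrmda, Meis1, Mtx2, Nkx6-1, Slc14a2, Slc39a11 and Zfp608. Of the 264 genes in 15 lists of developmental genes and pathways, 32 were nearest to a 120 h-only region. These comprised 39 regions (5.06%), against 7.93% of the shared and 6.59% of the 96 h-only regions. A nearest gene is a description of position and not of a target.

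Few of these regions lay next to the Hox genes, the classical targets of CDX2. A Hox gene was the nearest gene of 3 regions of the 120 h-only set (0.389%), against 25 shared (1.67%) and 18 of the 96 h-only regions (0.599%). The Hoxd3 region at chr2:74740762-74740991, in an intron and 1.23 kb from a start, overlapped H3K27ac in 7 of 7 libraries at both stages and NIPBL at every stage from 84 h to 168 h. The Hoxb9 region at chr11:96260398-96260597 held a CDX word and had H3K27ac in 1 of 7 libraries at 96 h and in 0 at 120 h. The Hoxc6 region at chr15:102996663-102996840 had no H3K27ac and no NIPBL. In HoxA, the region at chr6:52178339-52178609, 0.994 kb from the start of 5730596B20Rik and with the word shown above at its summit, had NIPBL from 108 h to 168 h and H3K27ac in 3 of 7 libraries at both stages. Genes of the Cdx and ParaHox list and of the intestine list were nearest to 0 regions of the 120 h-only set. The shares were also low in the other sets. They were 0.133% of the shared and 0.200% of the 96 h-only regions for Cdx and ParaHox, and 0.133% and 0.0999% for the intestine.

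On the telomeric side of HoxD, the domain that holds enhancers of the Hoxd genes, 3 regions of the 120 h-only set had the mitochondrial gene Mtx2 as their nearest start, 102 to 143 kb away. The strongest, at chr2:74970758-74971076, had a CDX2 fold enrichment of 7.06, H3K27ac in 0 of 7 libraries at 96 h and 4 of 7 at 120 h, NIPBL at every stage from 108 h to 168 h, and RAD21 in both libraries of 132 h and all 3 of 144 h. The region at chr2:75000516-75000698 (5.19) had H3K27ac in 2 of 7 libraries at both stages and NIPBL at 108 h and from 132 h to 168 h. The region at chr2:75011910-75012091 (4.39), whose CDX word is shown above, had H3K27ac in 2 of 7 and 4 of 7 libraries and no NIPBL. Mtx2 was the nearest gene of 1 of the 96 h-only regions and of no shared region.

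The neural tube list gave 8 regions near 5 genes (Dbx1, Irx3, Neurog2, Nkx6-1 and Olig2), which was 1.04% of the 120 h-only regions, against 0.733% of the shared and 0.599% of the 96 h-only regions. Nkx6-1, a homeodomain factor of the ventral neural tube, had 3 regions 144 to 367 kb from its start, all with NIPBL at 132 h, 144 h and 168 h and RAD21 in at least 1 library of 144 h. The strongest of these had H3K27ac in 5 of 7 libraries at 96 h and in 1 of 7 at 120 h. A region 32.6 kb from Olig2, the factor of motor neuron progenitors, had NIPBL from 120 h to 168 h, RAD21 in all 3 libraries of 144 h and H3K27ac in 0 of 7 libraries at 96 h and 3 of 7 at 120 h.

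The intermediate and lateral mesoderm list gave 5 regions, including those near Pitx1, Prrx1, Tbx3 and Tbx4 (0.649%, against 0.533% of the shared and 0.167% of the 96 h-only regions). The region near Prrx1, a homeobox factor of limb mesenchyme, at chr1:163355824-163356018 held a CDX word, had a fold enrichment of 5.97 and was acetylated in 7 of 7 libraries at 96 h and 5 of 7 at 120 h. By contrast, the region 14.8 kb from Tbx3 had no H3K27ac in any list and had NIPBL from 120 h to 168 h. The axial progenitor list gave 4 regions (0.519%), against 1.47% of the shared and 1.17% of the 96 h-only regions. Among these, the region near Greb1 is described above. The region 1.93 kb from the start of Lin28a, an RNA-binding protein of early progenitors, held a CDX word but had neither NIPBL nor H3K27ac. The region 9.45 kb from Wnt8a had H3K27ac in 6 of 7 and 7 of 7 libraries and NIPBL at 96 h, 144 h and 168 h. The region 610 kb from Cdh2 had H3K27ac in 1 of 7 and 3 of 7 libraries and NIPBL in 7 of 8 lists.

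Genes of the retinoic acid pathway were nearest to 4 regions (0.519%, against 0.600% of the shared and 0.500% of the 96 h-only regions). Meis1, a TALE homeodomain factor and Hox cofactor, accounted for 3 of them. The first, at chr11:18963673-18963926, held a CDX word and had a fold enrichment of 6.29, H3K27ac in 7 of 7 and 6 of 7 libraries and NIPBL from 108 h to 168 h. The second, at chr11:18889227-18889402, held a CDX word 41.5 bp from the summit and had H3K27ac in 0 libraries of both stages. The third, 264 kb from the start, had H3K27ac in 4 of 7 and 7 of 7 libraries and RAD21 in all 3 libraries of 144 h. The fourth region lay 25.9 kb from Aldh1a2, which encodes the enzyme that makes retinoic acid, and had NIPBL from 96 h to 168 h but no H3K27ac.

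Signalling pathways contributed 2 regions each. For TGF-beta and BMP this was 0.259%, against 0.200% of the shared and 0.266% of the 96 h-only regions. For FGF it was 0.259%, against 0.666% and 0.633%. In the TGF-beta and BMP list, the region near Bmp2, a ligand, held a CDX word and had NIPBL at 132 h, 144 h and 168 h and RAD21 in 2 of 3 libraries of 144 h, and the region near Chrd, a BMP antagonist, had the higher fold enrichment (6.44) and NIPBL at 120 h and 168 h. In the FGF list, the start of Dusp4, a phosphatase of ERK, had PolII in all 8 lists and H3K27ac in 2 of 7 and 5 of 7 libraries. In the Wnt list (0.259%, against 0.666% of the shared and 0.899% of the 96 h-only regions), the region in an intron of Tcf7l1, a repressor of Wnt targets, had NIPBL from 96 h to 168 h and RAD21 in all 3 libraries of 144 h. The other region of the Wnt list, near Wnt8a, is described above.

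Regions near somite genes showed different states. The region 59.9 kb from Uncx, a homeobox factor of the somite, had NIPBL from 108 h to 168 h and RAD21 in all 3 libraries of 144 h but no H3K27ac. The region 56.2 kb from Pax3 had H3K27ac in 7 of 7 libraries at 96 h and 3 of 7 at 120 h. The region near Notch1 had NIPBL at 132 h, 144 h and 168 h and no H3K27ac. Both regions near Gata3, in the trophoblast list, had NIPBL from 120 h to 168 h, with H3K27ac in 0 of 7 libraries at 96 h and in at most 1 of 7 at 120 h. Near Sox9 and Hnf4a, in the endoderm list, the 3 regions were all called from 11 fragments, the smallest number in the list.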

How the data were processed

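ChIP-seq (CDX2, H3K27ac, H3K27me3) and ChIPmentation (NIPBL, RAD21, CTCF, PolII; adapters added by transposase on the beads) libraries of mouse stembryos were analysed from the peak lists that the authors deposited. Reads were, as the submitters' processing notes and the study's methods say, trimmed with cutadapt 1.16, mapped to mm10 with Bowtie2 2.3.4.1 (the CTCF reads of the Ins line to a genome with the insertion), filtered with SAMtools 1.8 for confidently mapped proper pairs, and peaks of every library were called separately with MACS2 2.1.1.20160309 without an input. The deposited values of each region are a fold enrichment (ratio of fragments at the summit to local background), −log10 p and −log10 q, and a summit offset. Lists do not give the read depth. Fragments and background at each summit were therefore solved from the fold and −log10 p deposited by the authors, within 0.001, and a whole number was found for 98.0% to 99.9% of the CDX2 regions. Regions with several summits were merged, 21 assembled chromosomes were used, and an overlap of 1 base counted.

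Libraries were the replicates. H3K27ac at 96 h and 120 h and RAD21 at 96 h and 144 h were compared by two-sided exact permutation tests, and sets of regions within libraries by sign-flip permutation (100000 resamples where there were 10 or more libraries). Single H3K27ac regions were compared by Fisher's exact test. The smallest unadjusted p of 7 against 7 is 0.000583. The study's methods call the replicates biological and say that some, without naming them, were grown in separate cultures, so p-values measure the spread between these libraries, part of which may be technical. No 2 replicates shared more than 0.0817% identical regions.

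Protein-coding starts and exons came from the GENCODE release 21 mouse annotation of GRCm38, the build of the lists. Regions were named by a rule: the 12 of highest fold enrichment, those in the Hox clusters extended by 50 kb, up to 4 per gene list, and up to 8 with the largest difference in H3K27ac lists in each direction. The 120 h-only regions, gene lists and words were chosen with earlier results of these data known. Alternatives were stricter lists and members, lists of equal length, a larger overlap, other words and windows, other starts, wt or label subsets, and left-out libraries or stages. Elongating PolII lists were not used here. Python 3.11.15, numpy 2.4.6, pandas 2.3.3, scipy 1.17.1 and matplotlib 3.10.9 were used.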

Additional observations from a re-analysis of the deposited data

Results flagged for a closer look

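Within sets of 4 to 10 libraries, a library was singled out where its gap to the nearest other exceeded Dixon's 95% critical value, which chance does in about 1 in 20 sets. The 8 CTCF libraries, which differ in genotype and stage, held such a library. In the Ins(2xCBS-d4d8) library of 144 h, CTCF covered 11.7% of the 120 h-only regions, against 3.11% to 5.97% in the other 7. The difference from the 96 h-only regions was 1.48 points there and below 0 in the others. Its reads were mapped to another genome sequence than the others, and the part of this was not tested. Among the 5 RAD21 libraries of 96 h (3 wt and 2 Del(CBS1)), wt replicate 1 covered 20.0% of the 120 h-only regions, against 7.91% to 10.8% in the other 4.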

How the results depend on the processing

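Of 263 alternative values, 212 kept their direction and their side of the threshold, and 0 reversed. The H3K27ac difference between 120 h and 96 h passed for members at a −log10 q of 5 or more (6.37 points, exact permutation p = 0.0344) and when permuted within genotype (4.32, exact p = 0.0194). It also passed with the replicate number as a block (5.58, exact sign-flip permutation p = 0.03125), which left out wt replicate 3 of both stages. Without wt replicate 3 of 120 h alone, and with no block, it was 5.76 points (exact permutation p = 0.0152). It did not pass in wt alone (0.908, exact p = 0.7, in a design too small to pass) or with 50% of the region covered (2.15, exact p = 0.134), and leaving out libraries gave 3.10 to 5.76. The replicate numbers did not pair the samples (correlations of deviations −0.00297 to −0.00174 for H3K27ac and 0.0158 to 0.207 for RAD21), and the block moved no other call. The difference from the 96 h-only regions fell short of the threshold with 50% of the region covered (0.242 points), in wt alone (9.52) and in libraries described as a cell line (10.7), the latter 2 in designs too small to pass; leaving out libraries gave 9.74 to 10.5. For RAD21 at 144 h against 96 h, leaving out libraries gave 13.5 to 20.0 and lists of equal length 7.004, against 16.04.

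In the time courses, lists of equal length raised rho to 0.75 (H3K27ac share) and 0.810 (NIPBL difference), and stricter members raised the latter to 0.881. The RAD21 share fell short with stricter lists (0.714), 50% of the region covered (0.810), stricter members (0.810), no H3K27me3 regions (0.833) and libraries described as a cell type (0.607). The PolII difference from the 96 h-only regions (rho 0.881, exact permutation, adjusted p = 0.0290) fell short with 50% of the region covered (0.790), stricter members (0.714) and no H3K27me3 regions (0.810). Leaving out stages gave rho of 0.929 to 0.964 (NIPBL share), 0.643 to 0.857 (NIPBL difference), 0.75 to 0.964 (RAD21 share), 0.286 to 0.536 (RAD21 difference), 0.821 to 0.929 (PolII difference), 0.288 to 0.714 (PolII share), 0.455 to 0.755 (H3K27ac share) and 0.405 to 0.714 (H3K27ac difference).

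Of the single regions, 0 were called in either direction in wt alone, where no region could pass. With stricter lists 11 were called higher and 0 lower, and with lists of equal length 15 were called higher. Leaving out libraries gave 6 to 32 higher and 1 to 4 lower, the most without wt replicate 3 of 120 h. The CDX word share was 29.7% within 100 bp, 41.5% for 7 letters and 29.2% in stricter members. The median distance was 10.7 kb to all annotated starts and 35.7 kb without H3K27me3 regions, and 14.3% and 5.39% then lay within 1 kb.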
